A study of Mus musculus with 12 samples.

Results

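The vesicular glutamate transporters are the proteins that load the transmitter glutamate into synaptic vesicles, and their 3 genes, Slc17a6, Slc17a7 and Slc17a8, were followed here through intact, dissociated and magnetically sorted mouse dorsal root ganglia (DRG). They were taken by gene symbol, and each symbol stood on 1 of the 24490 rows of the expression table. Slc17a6 encodes VGLUT2, Slc17a7 VGLUT1 and Slc17a8 VGLUT3. Their expression was measured by RNA-sequencing of polyA-selected RNA in 12 samples, 4 in each of 3 groups, all from adult C57Bl/6 mice. Intact samples were whole ganglia of 1 mouse each, frozen straight after dissection. Dissociated samples were the unsorted cells of 2 mice each after enzymatic digestion and trituration. MACS samples pooled the cells of 8 mice each, which shared that digestion and then passed a magnetic column that held back cells labelled by a cocktail of antibodies against non-neuronal cells. MACS and Dissociated samples thus differ in the antibody labelling, the column and the number of mice pooled, and no label pairs a sample of one group with a sample of another.

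A vesicular glutamate transporter draws on the proton gradient that the vacuolar proton pump builds across the vesicle membrane. Primary sensory neurons of the DRG release glutamate in the spinal cord, and the isoform they carry differs between classes of neuron. VGLUT2 is known from most DRG neurons, VGLUT1 mainly from large-diameter, myelinated mechanoreceptors and proprioceptors, and VGLUT3 from a small class of unmyelinated touch neurons, the C-low-threshold mechanoreceptors (C-LTMRs), which also express Th.

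The genes resemble each other closely enough that their reads could be confused, so a stretch of their coding sequences is shown. It was placed around the longest run of identical bases shared by Slc17a6 and Slc17a7. It is 60 bases long, 5′ to 3′ on the coding strand, taken from exon 2 of each gene in the GRCm38 (mm10) reference annotation. Capitals mark bases that differ from Slc17a6, 7 in Slc17a7 and 11 in Slc17a8.
Slc17a6: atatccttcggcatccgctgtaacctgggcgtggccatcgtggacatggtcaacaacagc
Slc17a7: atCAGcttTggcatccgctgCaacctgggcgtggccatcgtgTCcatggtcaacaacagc
Slc17a8: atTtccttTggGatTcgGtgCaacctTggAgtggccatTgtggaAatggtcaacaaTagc
These stretches lie at chr7:51625441-51625500 on the plus strand, chr7:45168875-45168934 on the plus strand and chr10:89606610-89606669 on the minus strand. The longest run of identical bases was 25 between Slc17a6 and Slc17a8, 21 between Slc17a6 and Slc17a7 and 17 between Slc17a7 and Slc17a8. The run of 25 bases lies mostly outside the stretch shown. No run of 50 bases was shared by any pair, and the reads were 100 bases long, so reads of one gene differ from the transcripts of the others.

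Slc17a6 lies on chromosome 7 from 51621830 to 51671126 of mm10, Slc17a7 on the same chromosome from 45163921 to 45176139, both on the plus strand, and Slc17a8 on chromosome 10 from 89574020 to 89621249 on the minus strand. The longest transcript has 12 exons in each of them. The unconfirmed gene model Gm45072 overlaps Slc17a6 on its strand, and the microRNA gene Mir7055 overlaps Slc17a7 on its strand. Reads of these overlaps cannot be told apart by gene here.

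The tissue label fitted the neuronal markers: the 8 pan-neuronal markers, among them Tubb3, Uchl1 and Snap25, summed to 3507 to 3742 FPKM (sequenced fragments scaled to transcript length and to library size) in Intact, 4197 to 4531 in Dissociated and 3770 to 4841 in MACS samples. By the spacing of low values, the samples held about 13500000 to 19300000 fragments each, and the FPKM themselves come without counts. Intact replicate 1 stood apart: its 7 skeletal muscle markers gave the highest sum of that group, 2602 FPKM against a lowest of 14.1, and its median absolute log2 ratio to the other Intact samples, over genes averaging 10 FPKM or more, was 0.287 to 0.323. Dissociated replicates 1 and 2 were more alike than any of the other 17 pairs within groups, with a median absolute log2 ratio of 0.0456 against 0.0703 to 0.323. They were kept as 2 samples, as labelled, and each member was also compared with their mean as 1 sample. The red blood cell markers, of which Hba-a1 was listed at 0 in every sample, summed to 1693 to 15481 FPKM in MACS samples, 121 to 411 in Dissociated and 276 to 755 in Intact samples.

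Slc17a6 had overlapping levels in the 3 groups. It measured 49.1, 69.3, 61.9 and 67.0 FPKM in Intact replicates 1 to 4. In Dissociated replicates 1 to 4 it measured 65.7, 63.8, 61.4 and 64.3 FPKM, and in MACS replicates 1 to 4 it measured 67.2, 73.1, 69.7 and 61.0 FPKM. The 3 ranges overlapped, and the lowest value belonged to Intact replicate 1, the sample with the muscle markers. The group means were 61.8 ± 9.06, 63.8 ± 1.78 and 67.7 ± 5.11 FPKM (SD, n = 4), above 96.2%, 96.1% and 96.4% of listed genes.

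Slc17a7 moved most. It measured 27.6, 41.9, 46.7 and 40.5 FPKM in Intact replicates 1 to 4, and 71.9, 72.9, 98.2 and 79.9 FPKM in Dissociated replicates 1 to 4. In MACS replicates 1 to 4 it measured 8.32, 2.73, 8.07 and 7.22 FPKM. The 3 groups did not overlap, with Dissociated highest and MACS lowest, and MACS replicate 2 was the lowest of all 12 samples. The means were 39.2 ± 8.16 in Intact, 80.7 ± 12.2 in Dissociated and 6.59 ± 2.62 FPKM in MACS samples (SD, n = 4), above 93.4%, 97.2% and 71.7% of listed genes. About 117 to 382 fragments stood behind each MACS value, by the depth estimate.

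Slc17a8 had the lowest level of the 3 genes before sorting and the opposite order of groups to Slc17a7. It measured 4.01, 4.87, 4.60 and 4.73 FPKM in Intact replicates 1 to 4, and 3.45, 3.72, 2.89 and 2.69 FPKM in Dissociated replicates 1 to 4. In MACS replicates 1 to 4 it measured 8.43, 15.5, 11.4 and 15.5 FPKM. The groups did not overlap here either, with MACS highest and Dissociated lowest, and MACS replicate 1 was the lowest of its group. The means were 4.55 ± 0.381, 3.19 ± 0.479 and 12.7 ± 3.44 FPKM (SD, n = 4), above 64.2%, 60.5% and 80.9% of listed genes. About 181 to 293 fragments stood behind each Dissociated value.

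**Figure D1:**
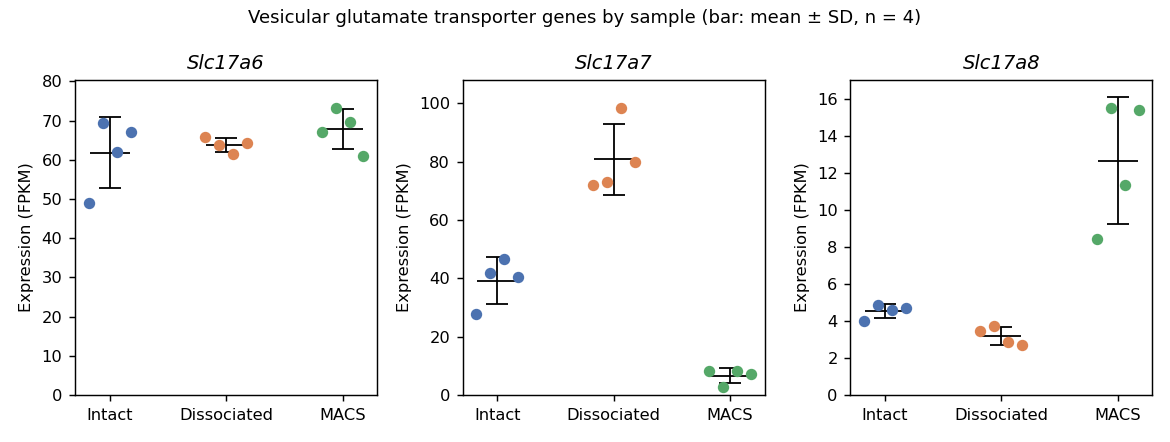
Expression of the 3 vesicular glutamate transporter genes in FPKM, 1 point per sample, with horizontal bars at the group mean and error bars of 1 SD (n = 4). Slc17a6 overlaps between groups, Slc17a7 is highest in Dissociated and lowest in MACS samples, and Slc17a8 is highest in MACS samples.

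Because FPKM is a value per length, the 3 genes can be set side by side within a sample. Slc17a6 was above Slc17a7 in all 4 Intact samples, Slc17a7 was above Slc17a6 in all 4 Dissociated samples, and Slc17a6 led again in all 4 MACS samples. There Slc17a8 also exceeded Slc17a7 in all 4 samples, although by little in replicate 1, where the 2 genes measured 8.43 and 8.32 FPKM. Of the summed FPKM of the 3 genes, Slc17a6 made up 58.7% ± 2.74 in Intact, 43.4% ± 3.91 in Dissociated and 77.8% ± 3.37 in MACS samples (SD, n = 4). Slc17a7 made up 36.9% ± 3.02, 54.4% ± 4.25 and 7.65% ± 3.15, and Slc17a8 made up 4.36% ± 0.41, 2.18% ± 0.437 and 14.6% ± 3.86, in the same order. The sum itself was 105.6 ± 16.7 FPKM in Intact, 147.7 ± 10.3 in Dissociated and 87.0 ± 3.82 in MACS samples, so the combined level was highest where Slc17a7 was highest.

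**Figure D2:**
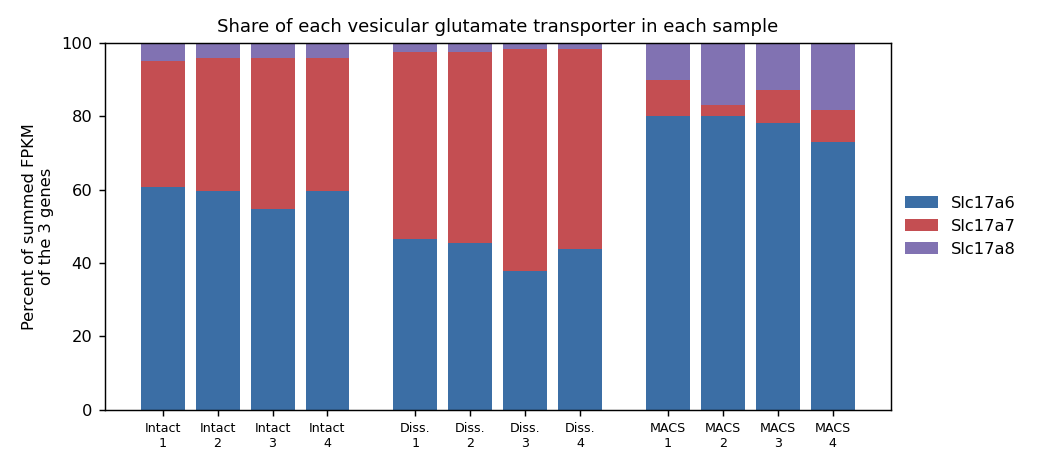
Share of each gene in the summed FPKM of the 3 vesicular glutamate transporter genes, in percent, 1 stacked bar per sample with the replicate number under it. Slc17a7 takes the largest share in the 4 Dissociated (Diss.) samples, and Slc17a6 takes 72.9% to 80.0% in the 4 MACS samples.

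The comparison of MACS with Dissociated samples asks which genes mark the neurons left after sorting. Slc17a7 was 12.3-fold lower in MACS samples and Slc17a8 3.98-fold higher, as ratios of mean FPKM, while the ratio for Slc17a6 was 1.06. On the log2(FPKM + 0.1) scale, on which the small constant slightly understates changes of low genes, the log2-fold change of Slc17a7 was −3.71 (SE 0.31, adjusted p = 1.46e-05 from limma). For Slc17a8 it was 1.93 (SE 0.20, adjusted p = 4.52e-05 from limma). For Slc17a6 it was 0.08 (SE 0.07, adjusted p = 0.350 from limma), with a 95% interval from −0.07 to 0.24 for the difference. Thus 2 of the 3 genes passed an adjusted p of 0.05, beside 46.5% of all 12038 genes tested, and both also passed a second rule, with a log2 ratio of means beyond 0.5 and over 5 FPKM in the higher group, beside 20.7% of genes. That rule called 12.5% of genes lower, as Slc17a7 was, and 8.15% higher, as Slc17a8 was. All 4 MACS samples lay below all 4 Dissociated samples for Slc17a7, as for 27.8% of genes, and above them for Slc17a8, as for 18.4% of genes. Under quantile normalization of the samples the genes called went from 2261 higher and 3331 lower to 4039 higher and 2767 lower, the median of all genes shifted by 0.14 on the log2 scale, and the changes of Slc17a7 and Slc17a8 were −3.54 and 2.07. Without MACS replicate 2 the change of Slc17a7 was −3.33 (adjusted p = 3.98e-07 from limma). In bulk samples fewer cells of a type and less RNA per cell cannot be told apart.

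Of 11 large-diameter neuron markers, 11 fell and 0 rose, with a median log2-fold change of −3.11 where the median of all genes was −0.04. Nefh, the heavy neurofilament chain, fell by 3.15 and Kcna1, a potassium channel subunit of large neurons, fell by 3.11 on the log2 scale. The summed level of the list was 1042 to 1261 FPKM in Dissociated and 109 to 196 FPKM in MACS samples. Of 8 C-LTMR markers, 7 rose and 0 fell, with a median of 1.26, and their summed level went from 129 to 171 FPKM in Dissociated to 296 to 598 FPKM in MACS samples. Of 11 small-diameter nociceptor markers, 10 rose and 0 fell, with a median of 0.79. Gfra2, which rose by 1.31 on the log2 scale, is on both this list and the C-LTMR list. Of the 8 pan-neuronal markers 3 rose and 2 fell, with a median of 0.23. Among all genes tested, 18.8% rose and 27.7% fell. Runx3, a large-diameter neuron marker, averaged under 1 FPKM in MACS samples. The lists were chosen with earlier results of these data known. The paper had already reported P2ry1 and Pou4f2, both on the C-LTMR list, as enriched by sorting in these samples. These counts are therefore a description.

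Non-neuronal markers moved too. All 8 satellite glia markers fell, with a median of −5.53, from a summed 2396 to 2978 FPKM in Dissociated to 95.6 to 231 FPKM in MACS samples. Most of that remainder in 3 MACS samples was Glul, at 82.3 to 111 FPKM in the 4 samples, while the other 7 markers summed to 13.3 to 120.6 FPKM in MACS and 2251 to 2818 FPKM in Dissociated samples. Of the Schwann cell markers, 6 of 7 tested fell, from 1913 to 3144 FPKM summed to 516 to 1196 FPKM. Of the tested fibroblast markers 5 of 6 fell, and of the macrophage markers 1 of 1 fell. The 6 endothelial markers did not pass the test and had a median of −0.52. All 8 tested rows of red blood cell markers, for 7 genes, rose, with a median of 4.39. The part of these cells in the values of Slc17a7 and Slc17a8 was not tested, and with the red blood cell list removed and the samples rescaled the changes were −3.67 and 1.97.

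**Figure D3:**
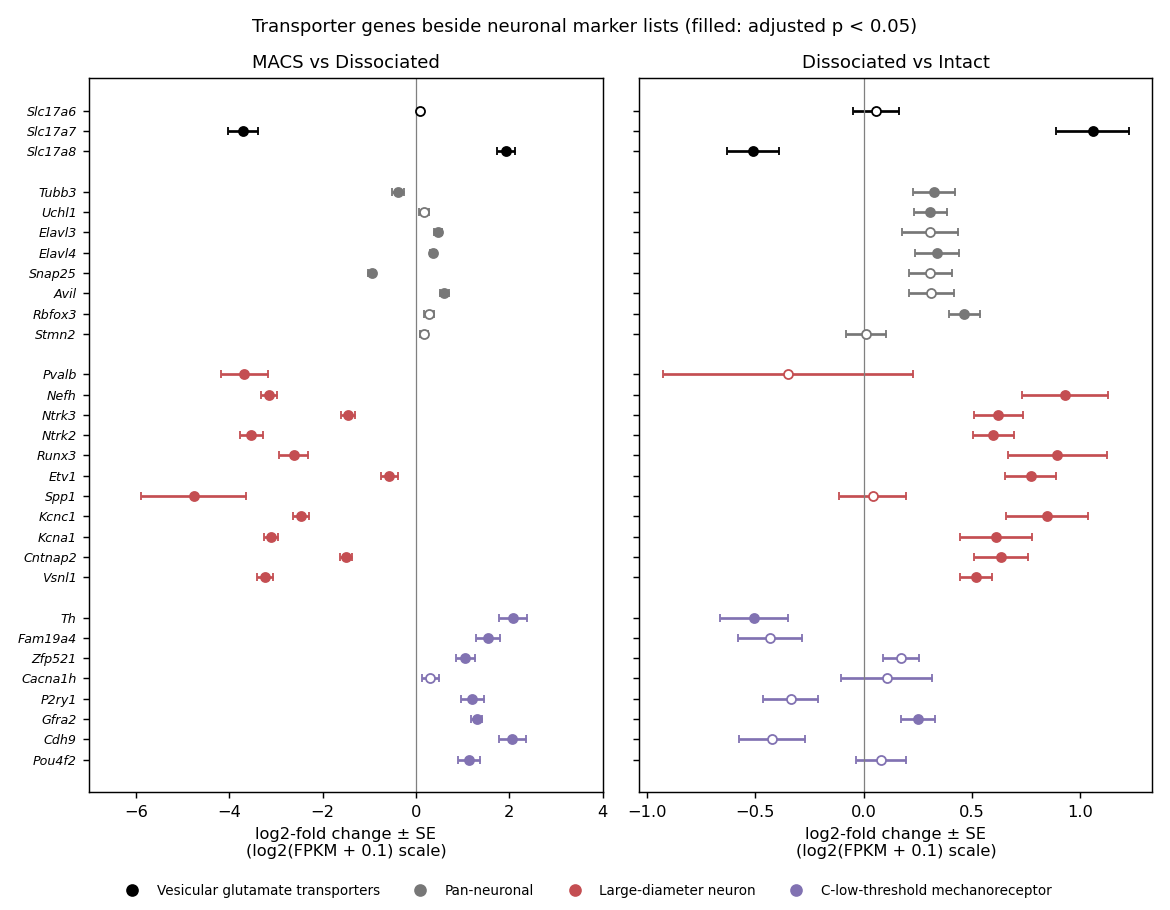
Log2-fold changes on the log2(FPKM + 0.1) scale with bars of 1 SE, for the 3 transporter genes and every tested gene of 3 neuronal marker lists, in MACS against Dissociated (left) and Dissociated against Intact samples (right, another axis range). Filled points passed an adjusted p of 0.05 (limma). Slc17a7 lies among the large-diameter neuron markers and Slc17a8 among the C-LTMR markers on the left.

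Ratios within a sample do not depend on the scaling between samples. The ratio of Slc17a7 to Slc17a6, with the constant of 0.1 added to both, was 0.125, 0.0386, 0.117 and 0.120 in MACS replicates 1 to 4, and 1.09, 1.14, 1.60 and 1.24 in Dissociated replicates 1 to 4. The groups were far apart, and MACS replicate 2 lay well below the other 3. On the log2 scale the difference of means was −3.79 (two-sided exact permutation p = 0.0286, the smallest that 4 samples against 4 allow, adjusted p = 0.0317 over 10 tests). The log2 ratio of Slc17a8 to Slc17a6 was −2.45 ± 0.44 in MACS and −4.29 ± 0.20 in Dissociated samples (SD, n = 4), a difference of 1.85 with the same exact permutation p and adjusted p. Relative to the mean log2 level of the 8 pan-neuronal markers, Slc17a7 differed by −3.80 and Slc17a8 by 1.84, again each with an exact permutation p of 0.0286. Slc17a6 relative to these markers was −2.08 ± 0.09 in MACS and −2.07 ± 0.06 in Dissociated samples, a difference of −0.01 (exact permutation p = 0.857). With the summed FPKM of the markers as divisor that small difference had the other sign, 0.11 (exact permutation p = 0.257).

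The comparison of Dissociated with Intact samples addresses the effect of preparing the cells. The groups differ in enzymatic digestion, handling and mice per sample, and these cannot be told apart. Slc17a7 was higher after dissociation, by a ratio of means of 2.06, and Slc17a8 was lower, by a ratio of 0.70. The log2-fold change of Slc17a7 was 1.06 (SE 0.17, adjusted p = 0.00478 from limma), and 0.90 (adjusted p = 4.99e-04 from limma) without Intact replicate 1. For Slc17a8 it was −0.51 (SE 0.12, adjusted p = 0.0191 from limma). This call was near its limit: the adjusted p was 0.0512 without Intact replicate 4, 0.0525 without Dissociated replicate 3 and 0.0505 without Dissociated replicate 4, and 0.0805 with all 12 samples in 1 limma fit. For Slc17a6 the log2-fold change was 0.06 (SE 0.11, adjusted p = 0.725 from limma, 95% interval −0.19 to 0.30), and its sign was negative without Intact replicate 1 (−0.05) and under quantile normalization (−0.0056).

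Thus 2 of the 3 genes passed an adjusted p of 0.05 after dissociation, beside 22.5% of all 12392 genes tested. Slc17a7 also passed the second rule, beside 7.04% of genes in either direction and 4.29% higher. Slc17a8 did not pass it, since its mean stayed under 5 FPKM in both groups, where 2.76% of genes were called lower. All 4 Dissociated samples lay above all 4 Intact samples for Slc17a7, as for 20.8% of genes, and below them for Slc17a8, as for 12% of genes. With Dissociated replicates 1 and 2 taken as 1 sample, the changes were 1.1 for Slc17a7 (adjusted p = 0.0153 from limma) and −0.57 for Slc17a8 (adjusted p = 0.0280 from limma).

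Of the 11 large-diameter neuron markers, 9 rose after dissociation and 0 fell, with a median log2-fold change of 0.62, and their summed level went from 732 to 890 FPKM in Intact to 1042 to 1261 FPKM in Dissociated samples. The highest Intact sum was that of replicate 1, where Pvalb, which skeletal muscle also expresses, measured 441 FPKM against 61.8 to 67.8 FPKM in the other Intact samples. The other 10 markers summed to 449 FPKM in that sample, the lowest of its group, 670 to 745 FPKM in the other Intact samples and 973 to 1163 FPKM in Dissociated samples. Nefh rose by 0.93 (SE 0.20). Of the 8 C-LTMR markers, 1 rose and 1 fell: Gfra2, a receptor for neurturin, rose by 0.25 and Th, the enzyme of catecholamine synthesis, fell by 0.50 on the log2 scale. Of the satellite glia markers, 4 of 8 rose and 0 fell, with a median of 0.47, and of the pan-neuronal markers 4 of 8 rose and 0 fell, with a median of 0.31. All 6 endothelial markers rose, with a median of 1.07, close in size to the change of Slc17a7. Of the tested markers 6 of 7 fibroblast, 5 of 6 macrophage and 6 of 7 skeletal muscle genes fell, with medians of −1.04, −1.14 and −5.07. All 7 skeletal muscle markers, and Aif1, Cd163 and Cx3cr1 of the macrophage markers, averaged under 1 FPKM in Dissociated samples. They passed the filter of a mean of 1 FPKM only through Intact samples. Of the 11 nociceptor markers 3 rose and 1 fell, with a median of 0.0056, and the 7 Schwann cell markers and 6 tested rows of red blood cell markers did not pass. The median of all genes was 0.01, and 14.8% of them rose and 7.79% fell. The part of these shifts in the values of the transporter genes was not tested.

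Within samples, the log2 ratio of Slc17a7 to Slc17a6 went from −0.67 ± 0.18 in Intact to 0.33 ± 0.24 in Dissociated samples (SD, n = 4), a difference of 1.00 (exact permutation p = 0.0286, adjusted p = 0.0317). The log2 ratio of Slc17a8 to Slc17a6 was −3.73 ± 0.10 in Intact samples and lower by 0.57 in Dissociated samples, with the same exact permutation p. Relative to the pan-neuronal markers Slc17a7 differed by 0.76 and Slc17a8 by −0.81, each with an exact permutation p of 0.0286. Slc17a6 relative to these markers was −1.84 ± 0.14 in Intact and −2.07 ± 0.06 in Dissociated samples, a difference of −0.24 (exact permutation p = 0.0286, adjusted p = 0.0317). With the summed FPKM of the markers as divisor this difference was −0.20 and no longer passed (exact permutation p = 0.143).

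MACS against Intact samples spans both steps and shares its samples with the comparisons above. Slc17a7 was 5.95-fold lower and Slc17a8 2.79-fold higher in MACS samples, as ratios of means, and the ratio for Slc17a6 was 1.1. The log2-fold changes were −2.65 for Slc17a7 (SE 0.33, adjusted p = 2.69e-04 from limma), 1.42 for Slc17a8 (SE 0.19, adjusted p = 3.91e-04 from limma) and 0.14 for Slc17a6 (SE 0.12, adjusted p = 0.411 from limma, 95% interval −0.13 to 0.42). Thus 2 of the 3 genes passed, beside 34.8% of all 12234 genes tested, and both passed the second rule, beside 18.3%, of which 10.7% were lower and 7.54% higher. Slc17a7 was lower in every MACS than in every Intact sample, as for 21.9% of genes, and Slc17a8 was higher, as for 15.6%. Under quantile normalization the genes called went from 1728 higher and 2524 lower to 3102 higher and 2044 lower, the median of all genes shifted by 0.17 on the log2 scale, and the changes were −2.53 for Slc17a7 and 1.60 for Slc17a8. The large-diameter neuron markers fell in 9 of 10 tested and rose in 0, and the C-LTMR markers rose in 7 of 8 and fell in 0. The nociceptor markers rose in 8 of 11, with a median of 0.79. Satellite glia markers fell in 7 of 8 with a median of −5.28, Schwann cell markers in 7 of 7 with −4.71 and fibroblast markers in 7 of 7 with −6.60, while red blood cell rows rose in 7 of 8 with a median of 3.79. Their part was not tested.

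The genes whose levels followed each transporter most closely were found by Pearson's r of log2(FPKM + 0.1) over the 12 samples among 12283 genes averaging 1 FPKM or more. The samples of a group share their preparation, so most of any r reflects the differences between groups, and r is given as a description. For Slc17a7 the highest were Hapln4, which links hyaluronan in the matrix around axons (r = 0.998), Epn3, an epsin of endocytosis (0.998), Lgi3 (0.997), the homeobox gene Meis2 (0.994) and Cgnl1 (0.994). Their levels followed the same order of groups: Hapln4, for example, measured 5.86 to 11.1 FPKM in Intact, 17.1 to 26.6 FPKM in Dissociated and 0.572 to 2.17 FPKM in MACS samples. Among the fixed lists, Nefh reached 0.989, Runx3, a transcription factor of proprioceptors, 0.988, and the satellite glia gene Sparcl1 0.978. The lowest were Paqr5 (−0.994), Rgs4, a regulator of G protein signalling (−0.986), and 1700003M02Rik (−0.983).

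For Slc17a8 the highest were the kinase gene Mapk7 (r = 0.991), Rnf112 (0.987), the cadherin gene Cdh9 (0.986), Vstm5 (0.983) and Rgs8 (0.982), and the lowest were Vat1l (−0.988), Lhfpl1 (−0.987) and Sik3 (−0.985). Cdh9 is also on the C-LTMR list, of which Th reached 0.980, Fam19a4, a secreted protein gene of these neurons, 0.964 and P2ry1, a purine receptor gene, 0.960. Th measured 89.7, 238, 119 and 205 FPKM in MACS replicates 1 to 4, and 26.1 to 42.6 FPKM in Dissociated samples. MACS replicate 1 had the lowest level of all 8 C-LTMR markers of its group, as it had the lowest Slc17a8. It also had the lowest level in 5 of the 8 rows of red blood cell markers above 0, and the part of red blood cells was not tested. Slc17a7 and Slc17a8 themselves had r = −0.959 over the 12 samples.

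For Slc17a6, whose groups overlapped, the highest r was lower than for the other 2 genes. The highest were Scaper (r = 0.969), Senp6, a protease of SUMO (0.958), Necab1, a calcium-binding protein gene (0.943), Naa15 (0.932) and Ppp1r12a (0.929), and the lowest were Parp16 (−0.963), Ccdc59 (−0.934) and Dnajc15 (−0.922). Scaper measured 5.58 to 10.5 FPKM in Intact, 8.70 to 9.65 in Dissociated and 8.51 to 12 FPKM in MACS samples, ranges that overlap as those of Slc17a6 do.

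**Figure D4:**
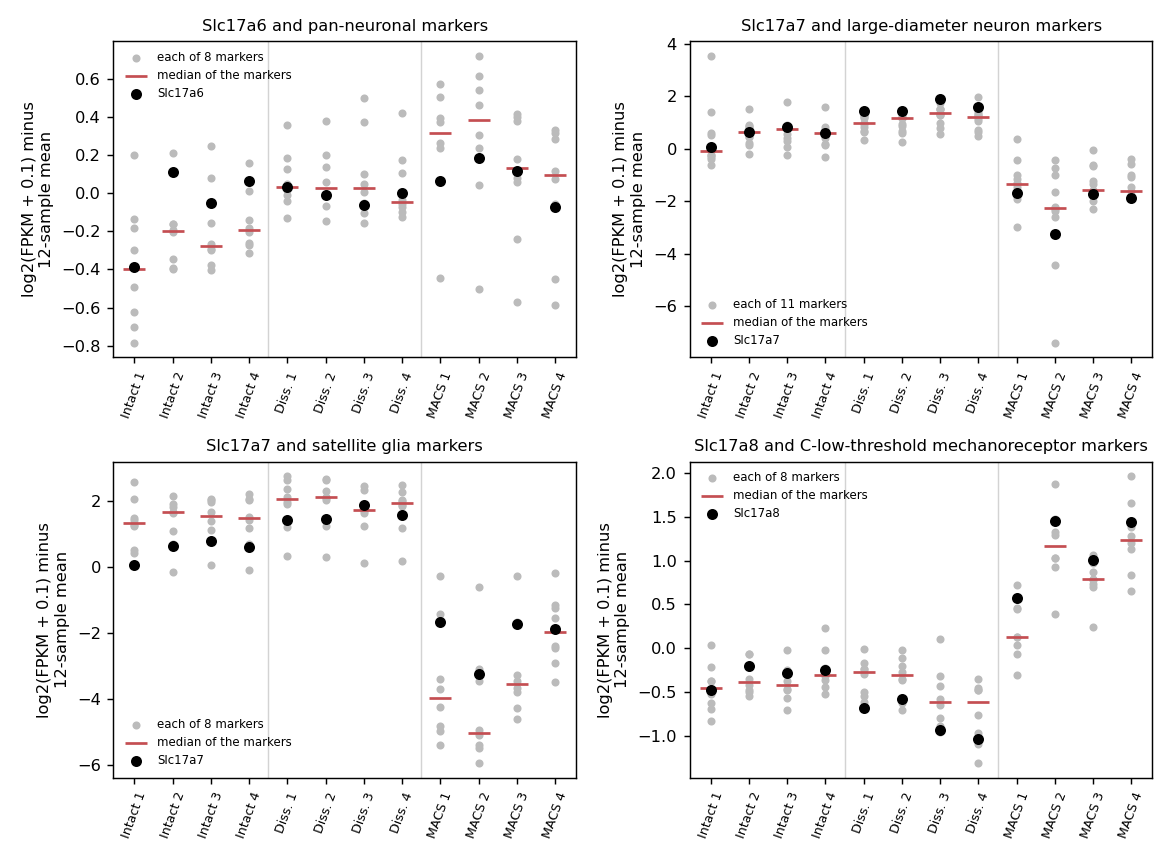
Log2(FPKM + 0.1) minus the 12-sample mean of each gene, in every sample, for a transporter gene (black), each gene of a marker list (grey) and the median of the list (red bar). In MACS samples Slc17a7 goes down with both the large-diameter neuron and the satellite glia markers, and Slc17a8 goes up with the C-LTMR markers.

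The other genes of the SLC17 family were little expressed apart from Slc17a5, the lysosomal sialic acid transporter sialin. Slc17a5 had mean levels of 9.81 ± 0.740, 10.4 ± 0.551 and 11.3 ± 1.90 FPKM in Intact, Dissociated and MACS samples (SD, n = 4), and did not pass the test in any of the 3 comparisons. Slc17a1 to Slc17a4, phosphate and anion transporter genes, and Slc17a9, the vesicular nucleotide transporter gene, stayed under 0.150 FPKM in every sample. Transporters for other transmitters were also low. Slc18b1, the vesicular polyamine transporter gene, measured 3.44 to 6.04 FPKM across the 12 samples and did not pass in any comparison. Slc18a1, the monoamine transporter of endocrine cells, measured 0.276 to 1.28 FPKM. Slc18a2, the monoamine transporter of neurons, reached at most 0.346 FPKM, Slc18a3, for acetylcholine, at most 0.108 FPKM and Slc32a1, for GABA and glycine, at most 0.252 FPKM. Per length, Slc17a6 thus stood above all these transporters in every sample, while the Dissociated levels of Slc17a8 lay below those of Slc18b1.

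The genes of glutamate handling and of related transporters were 45 genes in 5 lists, of which 32 were tested in MACS against Dissociated samples. The lists include the 6 other SLC17 genes and the 5 transporters for other transmitters described above. There 3 rose and 13 fell, beside 18.8% and 27.7% of all genes tested, and 2 and 11 of the 29 that averaged 1 FPKM or more in both groups, with a median log2-fold change of −0.06 against −0.04 for all genes. In Dissociated against Intact samples 14 of 32 rose and 1 fell, beside 14.8% and 7.79% of all genes, with a median of 0.23 against 0.01. In MACS against Intact samples 5 of 31 rose and 3 fell, beside 14.1% and 20.6% of all genes.

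Most genes that supply glutamate were lower in MACS than in Dissociated samples and higher in Dissociated than in Intact samples. In MACS against Dissociated samples 7 of 9 tested fell and 0 rose, beside 27.7% and 18.8% of all genes. The median was −0.43 against −0.04 for all genes. Slc38a1, a glutamine carrier of the plasma membrane, went from 11.3 to 14.2 FPKM in Dissociated to 4.76 to 5.77 FPKM in MACS samples (log2-fold change −1.25, SE 0.10, adjusted p = 8.46e-06 from limma). Got1, the cytosolic aspartate aminotransferase, had a log2-fold change of −0.71 (SE 0.11, adjusted p = 6.17e-04 from limma). In Dissociated against Intact samples 6 of 10 rose and 0 fell, beside 14.8% and 7.79% of all genes. The median was 0.39, and the rises were led by Slc38a1 with a log2-fold change of 0.70 and Got1 with 0.59. In MACS against Intact samples 2 of 9 tested rose and 2 fell, beside 14.1% and 20.6% of all genes. The median there was −0.05 against −0.04 for all genes.

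Of the genes of glutamate uptake and glial recycling, 3 of 5 tested fell and 2 rose in MACS against Dissociated samples, beside 27.7% and 18.8% of all genes. The rises were not stable: with 1 replicate left out 0 rose in 4 of 8 fits, those without Dissociated replicate 1 or 3 or MACS replicate 1 or 3, and 1 rose in the other 4. With Dissociated replicates 1 and 2 taken as 1 sample 0 rose. Slc1a1, Slc1a3 and Slc38a5 averaged under 1 FPKM in their lower group and passed the filter on low values only through the other. Slc1a3, the glial transporter GLAST, measured 4.50 to 5.34 FPKM in Dissociated and 0.0141 to 0.0670 FPKM in MACS samples. Its log2-fold change was −5.19 (SE 0.26, adjusted p = 7.22e-07 from limma). Slc1a1, a neuronal glutamate transporter, had a log2-fold change of −2.09, and Glul, the glutamine synthetase of satellite glia, one of −0.58. The 2 that rose were Slc1a6 (0.44, adjusted p = 0.0468 from limma) and the glutamine carrier gene Slc38a5 (1.68, adjusted p = 0.0401 from limma, 0.178 to 0.729 FPKM in Dissociated and 0.411 to 2.90 FPKM in MACS samples), whose groups overlapped in both cases. Slc1a3 and Glul are also on the satellite glia list.

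The vacuolar proton pump powers the transporters. Of its 16 subunit and accessory genes tested in MACS against Dissociated samples, 1 rose, 3 fell and 12 did not pass, with a median of −0.03. Of all genes tested, 18.8% were higher and 27.7% lower in that comparison, larger shares than in this list. Atp6v1g2, the subunit G form of neurons, had the most negative value, −0.72 (SE 0.06, adjusted p = 1.87e-05 from limma), and Atp6v1f, subunit F, rose by 0.42. In Dissociated against Intact samples 6 rose, 1 fell and 9 did not pass, with a median of 0.12, beside 14.8% higher and 7.79% lower of all genes. Atp6v0a1, the membrane subunit a form of neurons, rose by 0.61 (SE 0.11) and Atp6v1f fell by 0.44 on the log2 scale. In MACS against Intact samples 2 of the 16 rose and 0 fell, beside 14.1% and 20.6% of all genes.

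**Figure D5:**
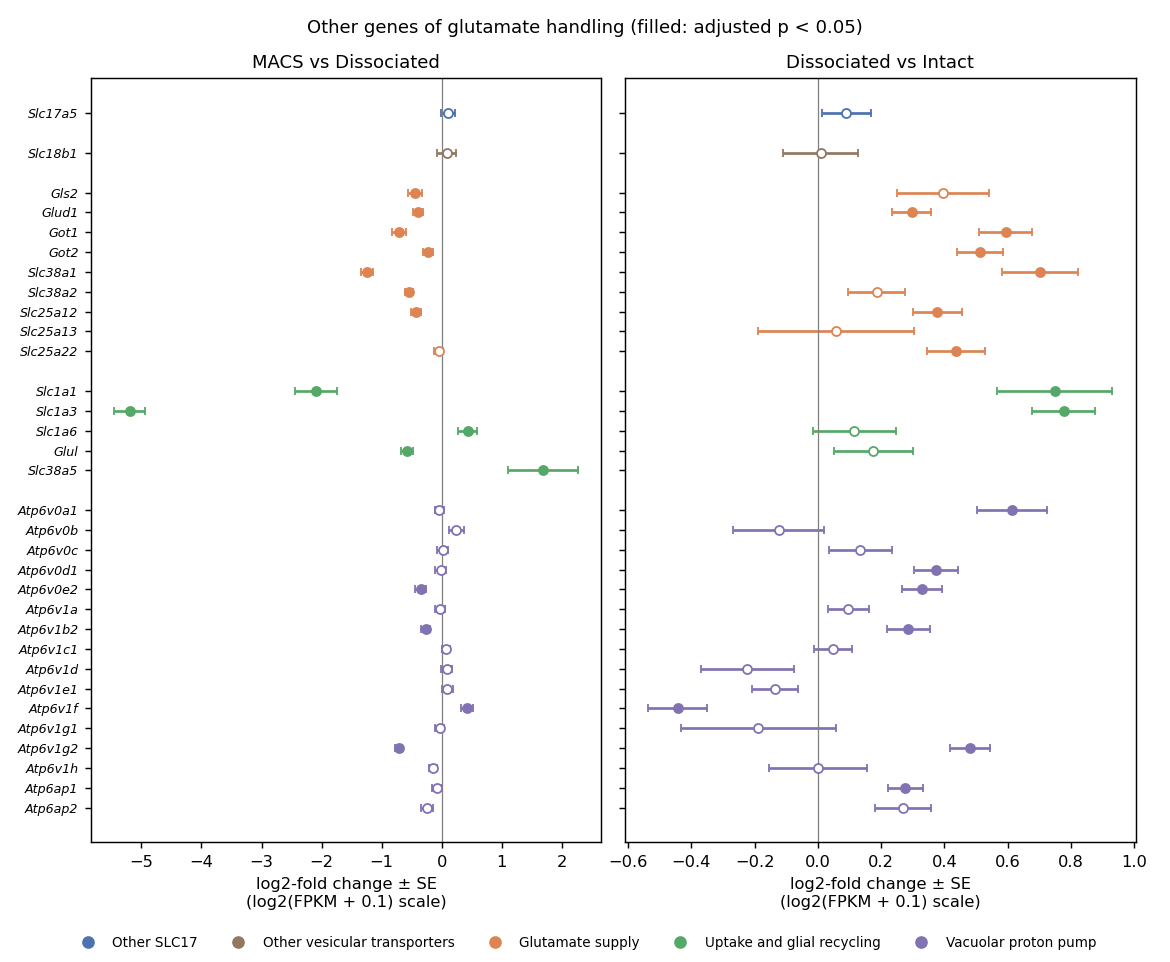
Log2-fold changes on the log2(FPKM + 0.1) scale with bars of 1 SE for other tested genes of glutamate handling and of related transporters, coloured by list, in MACS against Dissociated (left) and Dissociated against Intact samples (right, another axis range). Filled points passed an adjusted p of 0.05 (limma). In the left panel 13 of the tested genes fell and 3 rose, and in the right panel 14 rose and 1 fell.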

How the data were processed

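RNA of Intact, Dissociated and MACS samples, 4 of each, was sequenced by the authors on a HiSeq platform from strand-marked polyA libraries. Per the labels and the paper's methods, the authors aligned reads to mm10 with TopHat2, merged lanes with SAMtools and estimated expression with Cufflinks 2.1.1. The deposited table gives FPKM for each gene in each sample. Whether Cufflinks was told the strand is not given in the sources used here. Per-sample counts were not used here, so the depth is an estimate from the spacing of low FPKM with an assumed fragment length of 150 bases, and the spread between replicates serves as the error.

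Groups were compared with limma 3.58.1 in R 4.3.3, two-sided, on log2(FPKM + 0.1) with an intensity trend, for genes averaging 1 FPKM or more across the 8 samples compared, with Benjamini-Hochberg adjustment over all genes tested. The paper used CuffDiff, which needs aligned reads. Calls were made below an adjusted p of 0.05. The second rule, after the paper's criteria, also asked for a log2 ratio of means beyond 0.5 and over 5 FPKM in the higher group. Exact two-sided permutation tests (scipy 1.17.1, Python 3.11.15) compared 5 single measures in 2 comparisons. The procedure was tested on simulated data.

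The genes named are the 3 members, genes of 5 pathway and 11 marker lists, and per member the 5 genes with the highest and the 3 with the lowest correlation. The values of 1 gene of the glutamate supply list are not reported here, although the counts of the list include it. Members and lists were chosen with earlier results of these data known. Nothing in the labels or the paper's text pairs samples across groups. The p-values set the differences between groups against the spread between samples. Each sample holds 1 mouse in Intact, 2 mice in Dissociated and 8 mice in MACS, so that spread differs in kind between groups. Coding sequences, exons and overlaps come from the GENCODE annotation of GRCm38. Alternatives covered pseudocounts of 1 and 0.01, other filters, all 12 samples in 1 fit, a replicate block, no trend, 3 rescalings, Dissociated replicates 1 and 2 averaged, another divisor for the pan-neuronal markers, and leaving out each replicate.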

Additional observations from a re-analysis of the deposited data

Results flagged for a closer look

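Across 24 sets of 4 samples, 3 held a sample whose gap to its nearest neighbour was over Dixon's 95% limit as a share of the whole range, which chance passes in about 1 of 20 sets. In MACS replicate 2 the log2 ratio of Slc17a7 to Slc17a6 was −4.70, and Slc17a7 relative to the pan-neuronal markers was −6.81, both far below the other 3 MACS samples. These measures share the Slc17a7 value of that sample, 2.73 FPKM, whose own gap in FPKM stayed under the limit. In Intact replicate 2, Slc17a8 relative to the pan-neuronal markers was −5.49, above the other 3 Intact samples.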

How the results depend on the processing

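Of 293 alternative values for 19 results of the members, 285 kept direction and side of the threshold or, where too few samples allow no test, moved by less than 1 SD. The exceptions concern Slc17a6, and Slc17a8 in Dissociated against Intact samples. Slc17a6 there reversed to −0.0056 under quantile normalization and ranged from −0.049 to 0.12 with 1 replicate left out, the lowest without Intact replicate 1. Relative to the pan-neuronal markers with their summed FPKM as divisor, Slc17a6 reversed to 0.11 in MACS against Dissociated samples, where it lay between −0.05 and 0.02 with 1 replicate left out, and weakened to −0.20 in Dissociated against Intact samples. Slc17a8 in Dissociated against Intact samples was −0.51 with an adjusted p of 0.0805 (limma) in the fit of all 12 samples, and −0.58 to −0.43 with 1 replicate left out, where 3 of 8 fits missed the threshold (adjusted p 0.00547 to 0.0525). A leave-one-out fit holds fewer samples, and the cause of these changes was not tested. At a filter of 5 FPKM Slc17a8 was not tested in that comparison. Exact permutation tests of 3 samples against 4 cannot pass, since their smallest p is 0.0571, nor can those within replicate numbers, whose smallest is 0.125.

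Correlations of same-numbered samples, taken on deviations from the group means, ran from −0.14 to 0.07 and gave no sign of pairing by number. They were not compared with those of differently numbered samples, so they cannot exclude pairing. The replicate block moved no call of a member: the adjusted p (limma) was 5.71e-05 for Slc17a7 in MACS against Dissociated and 0.0387 for Slc17a8 in Dissociated against Intact samples. With it, genes of the pathway lists that rose in MACS against Dissociated samples went from 3 to 1. Among counts, 111 of 790 alternatives moved by over 1.5 times. Genes called higher in Dissociated than Intact samples went from 1828 to 1178 in the fit of all 12 samples, 1082 with Dissociated replicates 1 and 2 averaged and 531 under the second rule, and those lower from 965 to 541, 610 and 342, to 514 at a filter of 5 FPKM, and to 498 to 1666 with 1 replicate left out. Past 1.5 times were the higher genes without any Dissociated replicate (1052 to 1164) and the lower genes without any Dissociated replicate (498 to 612), without Intact replicate 4 (550) and without Intact replicate 1 (1666). Under the second rule 981 genes were higher and 1505 lower in MACS than Dissociated samples, and 922 and 1313 in MACS than Intact samples, where quantile normalization gave 3102 higher genes in place of 1728. A filter of 5 FPKM left 2092 lower genes in MACS than Dissociated and 1257 in MACS than Intact samples.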
